A study of Drosophila melanogaster with 2 samples.

Results

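The 8 Hox genes of Drosophila melanogaster were examined in ChIP-seq peak lists for a fusion of Worniu with enhanced GFP. A peak was assigned to a Hox gene where its summit, the position the authors gave as its highest point, lay in the gene body or within 20 kb of it. Of 13968 annotated protein-coding genes, the members were labial (lab), proboscipedia (pb), Deformed (Dfd), Sex combs reduced (Scr) and Antennapedia (Antp) of the Antennapedia complex, and Ultrabithorax (Ubx), abdominal A (abd-A) and Abdominal B (Abd-B) of the bithorax complex. Their windows merged to 627 kb of chromosome arm 3R and held 22 of the 3064 peaks of the conservative list. That is the authors' name for 1 of the thresholded lists made from both replicates. The other, called the second list below, holds 3081 peaks and shares 2682 with it. The genes were taken by name as a family, but with earlier results of these data known.

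Whole embryos aged 0 to 18 h from transgenic flies expressing wor-eGFP were used, and chromatin was precipitated with an antibody against GFP in 2 biological replicates that form 1 group. There was no second genotype, stage or treatment, so the comparisons are between the Hox windows and the rest of the genome and between the replicates. Whole embryos mix all tissues, so a weak peak from few nuclei and weak binding in many cannot be told apart. No control library was analysed here, the read depth is unknown, and the sources used here do not name the promoter that drives the fusion.

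Worniu, a relative of Snail with zinc fingers, binds DNA in neuroblasts, the stem cells of the embryonic nervous system, and helps to keep them dividing. Hox genes encode homeodomain transcription factors that give segments along the head-to-tail axis their identity, in the nerve cord as well as the epidermis. Their position along the chromosome follows the order of the segments they pattern, and Polycomb and Trithorax group proteins keep them silent or active through development. In the nervous system Hox proteins also set how long neuroblasts of each segment divide.

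The first 8 sequences are from conservative peaks, 1 or 2 for each gene that has any, and the last 3 are from the strongest ranked peaks of the genes with no conservative peak. The strongest Abd-B window peak touches a UTR and is not printed, so the next strongest outside the body stands in its place. Each run holds the summit and 50 bases on either side of it, on the plus strand of RefSeq Release 6 (dm6), 5′ to 3′. Capitals mark every match, on either strand, to a motif that was searched for; in these windows the matches are to CAGGTAG (Zelda), to CATATG (an E-box), to GAGAG (GAGA factor), to GCCAT (Pho) and to TAATTA (homeodomain proteins).
pb window, upstream of bcd, chr3R:6759562-6759662: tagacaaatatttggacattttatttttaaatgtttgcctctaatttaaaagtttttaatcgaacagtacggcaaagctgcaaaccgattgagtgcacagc
Antp window, flank, chr3R:6881735-6881835: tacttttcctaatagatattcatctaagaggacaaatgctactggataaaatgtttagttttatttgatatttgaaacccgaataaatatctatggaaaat
Antp body, intron, chr3R:6920186-6920286: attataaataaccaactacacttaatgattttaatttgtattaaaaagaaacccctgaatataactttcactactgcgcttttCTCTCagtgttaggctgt
Ubx window, flank, chr3R:16647109-16647209: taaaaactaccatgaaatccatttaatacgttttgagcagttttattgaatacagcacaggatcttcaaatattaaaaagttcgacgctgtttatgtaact
Ubx body, intron, chr3R:16704322-16704422: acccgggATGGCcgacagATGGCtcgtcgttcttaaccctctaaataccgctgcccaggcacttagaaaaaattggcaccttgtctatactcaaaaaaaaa
abd-A window, flank, chr3R:16798855-16798955: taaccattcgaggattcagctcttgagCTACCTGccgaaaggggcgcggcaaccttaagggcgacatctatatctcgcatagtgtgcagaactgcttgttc
Abd-B window, flank, chr3R:16907947-16908047: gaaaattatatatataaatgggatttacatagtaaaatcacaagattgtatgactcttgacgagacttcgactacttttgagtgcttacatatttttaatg
Abd-B body, intron, chr3R:16958275-16958375: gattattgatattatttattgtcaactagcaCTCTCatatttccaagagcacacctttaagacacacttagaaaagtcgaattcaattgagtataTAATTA
lab window, ranked list, chr3R:6689236-6689336: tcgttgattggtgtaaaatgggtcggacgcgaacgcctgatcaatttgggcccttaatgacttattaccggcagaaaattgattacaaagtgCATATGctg
Dfd window, ranked list, chr3R:6791152-6791252: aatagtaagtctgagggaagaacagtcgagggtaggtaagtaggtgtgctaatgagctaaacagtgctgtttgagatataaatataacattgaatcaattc
Scr window, ranked list, chr3R:6818710-6818810: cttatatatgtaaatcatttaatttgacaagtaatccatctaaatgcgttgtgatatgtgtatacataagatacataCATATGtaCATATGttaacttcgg

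Peaks lay in the windows of 5 of the 8 Hox genes. The pb window held 1 conservative peak, Antp 10, Ubx 2, abd-A 4 and Abd-B 5, and lab, Dfd and Scr held 0. Across all protein-coding genes, 64.1% had a conservative peak in the body or within 20 kb, and 70.6% did among the 1873 genes at least as long as the shortest Hox gene. The Hox count of 5 of 8 was near both shares and is no result about the family. Inside the bodies, 3 of 8 Hox genes had a summit, above the 8.5% of all genes and near the 36.9% of the long ones. Within 2 kb of the bodies, 3 of 8 had one, against 22.4% of all genes and 45.7% of the long ones.

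Of the 22 peaks, 7 overlapped a stronger peak of the list by at least 1 bp, with summits 199 to 237 bp from it and signals of 2.94 to 13.6. The authors' signal was equal for every peak that the conservative list shared with its ranked list or with the second list, while the replicates' own lists carry other values and are not compared with it by size. The other 15, called main peaks below, had signals from 65.3 to 254. The 5 main peaks of Antp each had such a weak companion, so its count of 10 stands for 5 places.

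**Figure D1:**
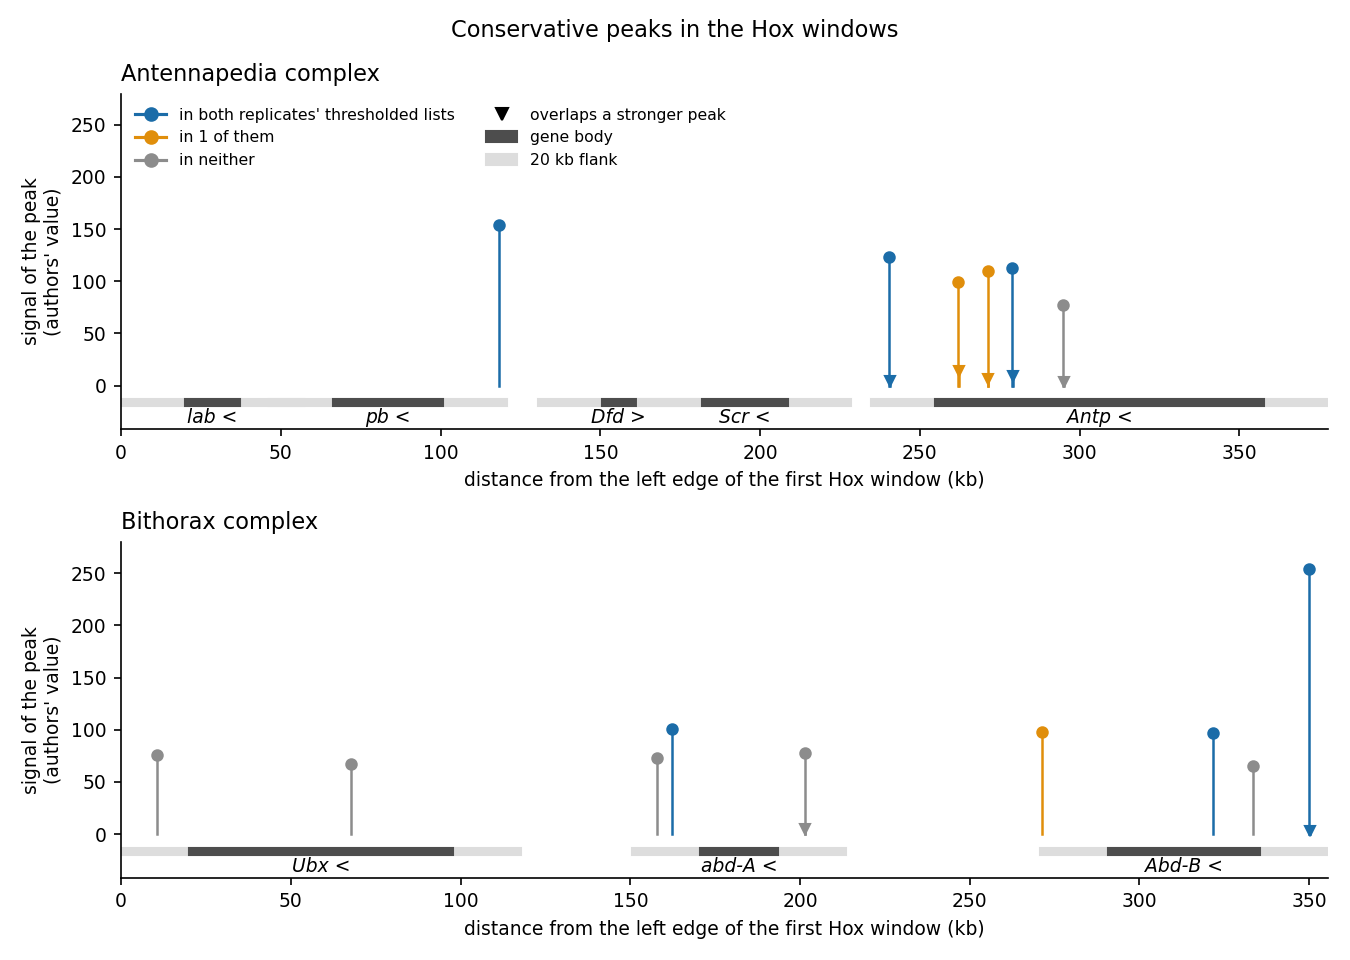
Signal of each of the 22 conservative peaks (vertical axis, the authors' value) by distance in kb from the left edge of the first Hox window of each complex, with gene bodies dark, flanks light and arrowheads giving the direction of transcription. Colour gives presence in the replicates' thresholded lists. The 5 main Antp peaks lie on the left side of its window, and the strongest peak, at 254, lies in the right flank of Abd-B.

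The anterior genes of the Antennapedia complex act in the head. No peak of the conservative list lay in the window of lab, which patterns the intercalary segment and the midgut. The window of pb, which directs the formation of the adult mouthparts, held a peak with a signal of 154 and rank 1007 of 3064. Its summit at chr3R:6759612 was 146 bp upstream of bicoid (bcd), the maternal gene for anterior patterning, and 17549 bp from pb. It had a signal of 61.7 in the ranked list of replicate 1 and 87.8 in that of replicate 2, and it was in the thresholded lists of both. A second pb peak, in a pb intron at chr3R:6717659, was in the thresholded list of replicate 2 only, with a signal of 44.0 and rank 1754 of 1801.

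Dfd, which specifies the mandibular and maxillary segments, and Scr, which specifies the labial segment and the first thoracic one, also had no conservative peak. Their strongest ranked peaks stood close to the weakest main peaks in signal. The Dfd peak at chr3R:6791202 lay 634 bp upstream of the Dfd start with a signal of 69.5, rank 3070 of 63100. Its −log10 of the global IDR (irreproducible discovery rate, which compares peak ranks between replicates) was 0.33, where the thresholded lists hold only values of at least 2. Its signals were 32.7 at rank 4128 of 56891 in replicate 1 and 21.9 at rank 13284 of 36518 in replicate 2, a lower rank in the shorter list. The Scr peak at chr3R:6818760, which also lies in the Dfd window, had a signal of 61.9 and a −log10 IDR of 1.73. The strongest lab peak, at chr3R:6689286 and shared with the pb window, had a signal of 57.8 and a −log10 IDR of 0.24, and lay 953 bp from the start of the cuticle protein gene Ccp84Af. Of all ranked Hox peaks outside the conservative list, 1 reached the signal of the weakest main peak, 65.3, and that was the Dfd peak. In the whole ranked list, 3362 peaks reached that signal, and 2809 of them (83.6%) had a −log10 IDR of at least 2. Missing the limit at such a signal was therefore not particular to Dfd.

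**Figure D2:**
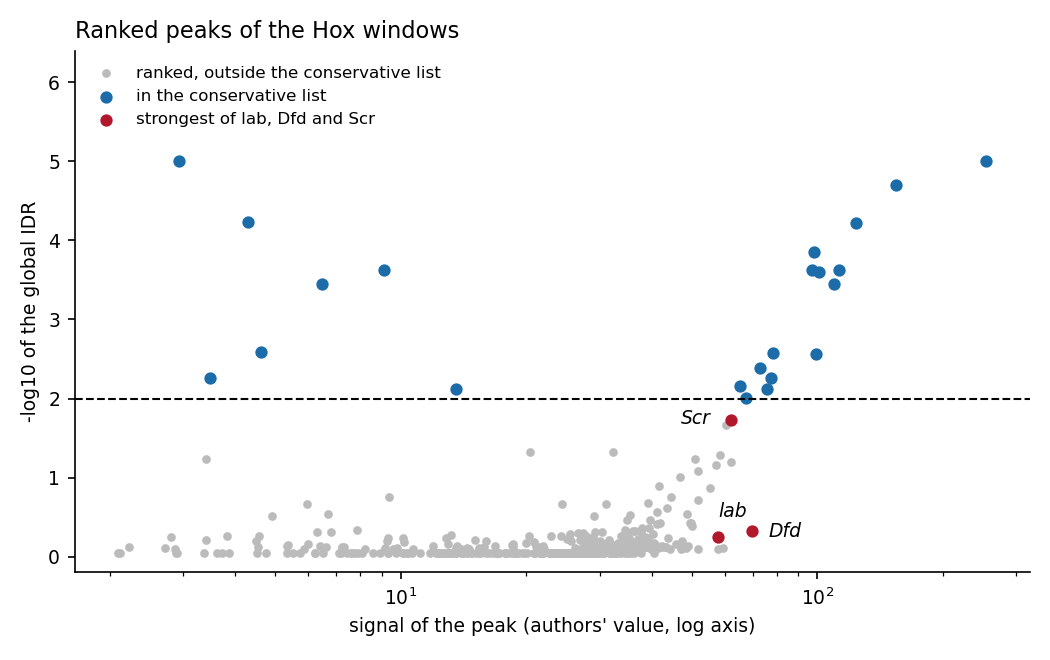
The 375 ranked peaks of the Hox windows by signal (log axis, the authors' value) and −log10 of the global IDR, with the limit of 2 dashed. All 22 peaks above the limit are in the conservative list, 7 of them weak companions at signals up to 13.6, and the Dfd peak has a signal of 69.5 at a −log10 IDR of 0.33.

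Antp, which gives the second thoracic segment its identity, had the most peaks of the family in the conservative list, in the longest window. Its count fell from 10, of which 5 were main peaks, to 4 in the thresholded list of replicate 1. It was 2 in that of replicate 2, where pb and Abd-B also had 2. In the windows, the replicates' thresholded lists held no peak that overlapped a stronger one, so their counts compare with the 5. The 103 kb Antp body shares its span with CG46458. Along the arm, the first main peak, at chr3R:6881785 in an intron of lncRNA:CR44931, was 14468 bp beyond the 3′ end of Antp and had a signal of 124 at rank 1380. The other 4 lay in Antp introns, with signals of 99.1 at chr3R:6903374, 110 at chr3R:6912588, 112 at chr3R:6920236 and 77.5 at chr3R:6936356. All 5 were below the pb peak. The nearest transcript start to the peaks at chr3R:6903374 and chr3R:6912588 was that of lncRNA:CR43252, 1308 and 7906 bp away. The nearest of the 5 to an Antp start, the weakest, was 3516 bp upstream of it. Of genes at least as long as Antp, 5 of 86 (5.81%) had 10 or more conservative peaks and 18 (20.9%) had 5 or more main peaks, while 30 had 0.

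Ubx, which specifies the third thoracic segment and the haltere, had the lowest maximum signal among the genes with a peak. The peak at chr3R:16647159, with a signal of 75.8 and rank 2509, was 9464 bp from Ubx. It lay between divergent genes, 155 bp upstream of CG10324 and 446 bp upstream of CCT3, a chaperonin subunit. The peak in a Ubx intron at chr3R:16704372 was 15755 bp from the nearest start, that of the antisense RNA asRNA:PS4. It had a signal of 67.4 at rank 2707 and a −log10 IDR of 2.00, at the limit, and was absent from the second list made from both replicates. Neither Ubx peak was in either replicate's thresholded list. Their signals were 31.0 and 30.9 in replicate 1 and 43.0 and 35.3 in replicate 2.

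The window of abd-A, which acts in the anterior and middle abdomen, held 3 main peaks, none in the gene body. The strongest, at chr3R:16798905, had a signal of 101.1 at rank 1810, lay 8309 bp from abd-A and 1695 bp from the start of lncRNA:CR45750, and was in both replicates' thresholded lists. The peak at chr3R:16794451, with a signal of 72.7, was 6140 bp from the start of Glut3, a sugar transporter gene. The peak at chr3R:16837945, with a signal of 78.0, was 7896 bp upstream of abd-A in an intron of the long non-coding RNA iab8. The last 2 were in neither replicate's thresholded list.

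The window of Abd-B, which specifies the posterior abdomen, held the strongest Hox window peak. That peak, at chr3R:16986628, had a signal of 254 at rank 429 and lay in the 5′ UTR of CG18622, 222 bp from its start and 14392 bp from Abd-B. It was the strongest main peak in each replicate too, with signals of 159 and 94.9. Within Abd-B introns, the peak at chr3R:16958325 had a signal of 96.9, lay 1956 bp downstream of an Abd-B start and was in both thresholded lists. The other intronic peak, at chr3R:16970005, was the weakest main peak at 65.3, was absent from the second list and was in neither replicate's list. The peak at chr3R:16907997, in an intron of iab8 and 19215 bp from Abd-B, had a signal of 98.3 and sat near the edge of its window.

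The windows have a sharp limit of 20 kb. Just inside it stood the iab8 peak of Abd-B at 19.2 kb, and just outside stood a peak in an intron of Amalgam (Ama), an immunoglobulin family gene, 20.95 kb from pb with a signal of 107. Over the whole span of both complexes the conservative list held 13 peaks in the Antennapedia complex and 11 in the bithorax complex. Without peaks that overlapped a stronger one, the counts were 7 and 9. The 2 added peaks were both at Ama, and the weaker, with a signal of 26.3, overlapped the stronger. The 89.9 kb between the bithorax windows held 0 peaks of the conservative list. The second list and the thresholded list of replicate 1 each held 1 there, and that of replicate 2 held 0.

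No conservative summit lay within 500 bp of a Hox transcript start. Of the 22, 4 (18.2%) lay within 500 bp of any annotated start, those of bcd, CG10324 with CCT3, and CG18622, against 41.6% of the conservative peaks on the chromosome arms. The 7 main peaks in Hox bodies were all intronic, with a median signal of 96.9, and the 3 main peaks near starts of other genes had a median of 154. By place, 15 of 22 (68.2%) were intronic against 52.2% on the arms, and 4 (18.2%) were intergenic against 36.9%. These shares rest on few peaks, and no test was made.

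The Hox window peaks stood low in the list by signal. Their median rank was 2483.5 of 3064, at percentile 19.0 with 100 the strongest, and 3 of 22 (13.6%) were among the 1532 strongest. The 7 companions were all in the lowest of 10 equal parts of the list. The 15 main peaks had a median signal of 98.3 and a median percentile of 39.0, against 123 and 54.7 for peaks on the arms that overlapped no stronger peak. The strongest of the 10 parts held 0 Hox window peaks.

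**Figure D3:**
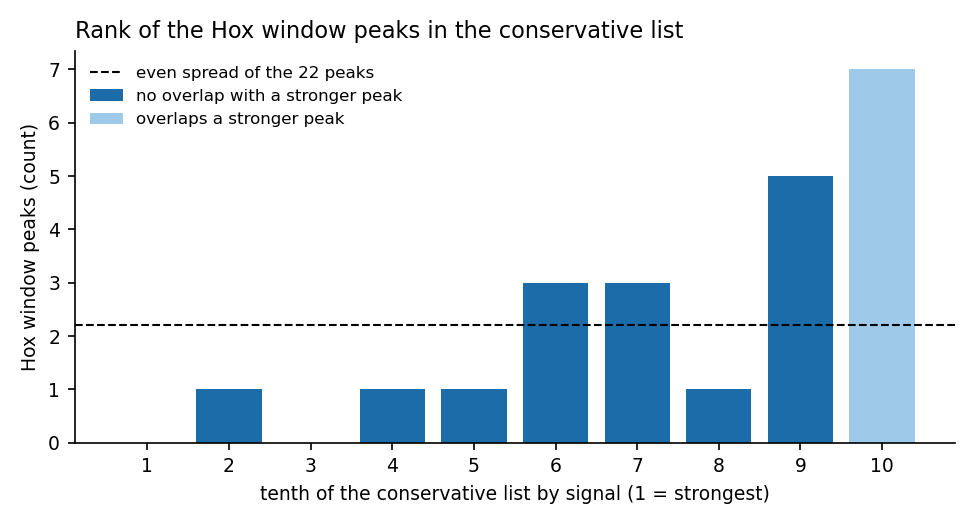
Number of Hox window peaks (vertical axis) in each of 10 equal parts of the conservative list by signal, strongest first, with main peaks dark and peaks that overlap a stronger one light. The strongest part holds 0, the ninth holds 5 main peaks and the last holds the 7 companions.

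Per 100 kb, the Hox windows held 3.51 conservative summits against 2.21 on the arms and 2.08 on arm 3R. With main peaks alone the values were 2.39 and 2.01. In the replicates' thresholded lists the order was the other way, 1.43 against 1.65 in replicate 1 and 1.12 against 1.30 in replicate 2. Arm 3R, which holds all the windows, had 1.47 and 1.15 in these lists, close to the Hox values. The windows were therefore neither richer nor poorer in peaks in all the thresholded lists. In the 4 ranked lists, which include weak peaks, they held 59.8 against 45.4, 48.8 against 36.6, 48.6 against 40.7 and 30.8 against 26.3. Arm 3R alone held 50.9, 41.9, 46.2 and 28.6 in the same lists, closer to the Hox values than all arms together.

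**Figure D4:**
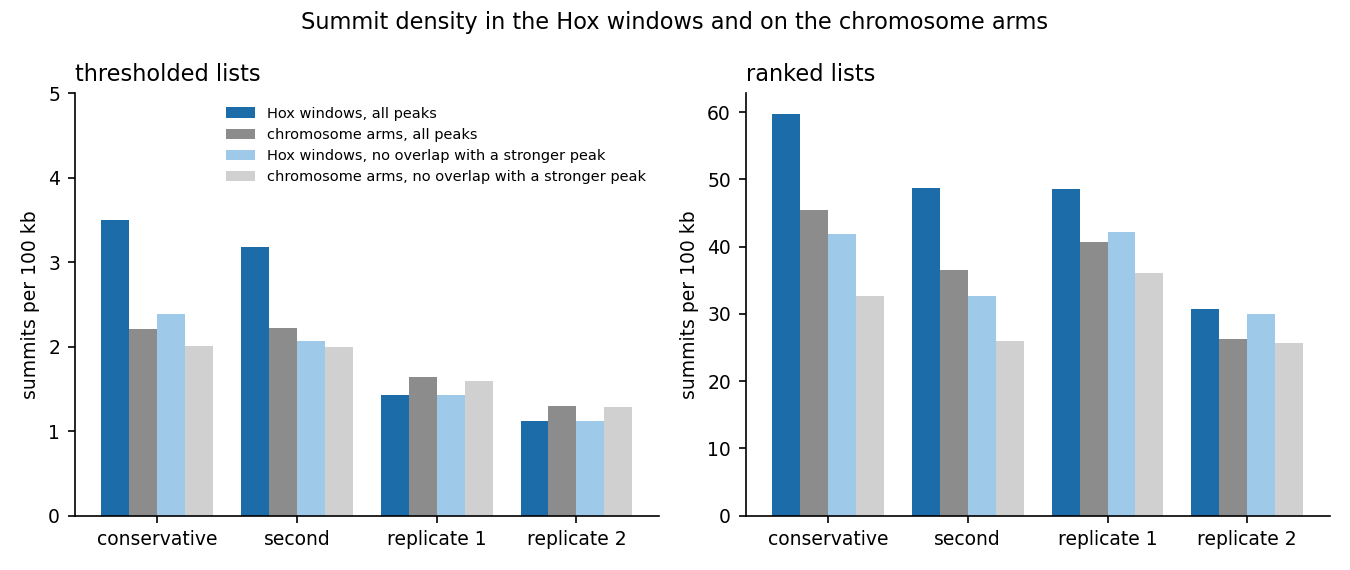
Summits per 100 kb in the Hox windows (blue) and on the chromosome arms (grey) in the thresholded lists (left) and the ranked lists (right), with pale bars for peaks that overlap no stronger peak. The Hox bar is above the arm bar in the conservative list, 3.51 against 2.21, and below it in replicate 1, 1.43 against 1.65.

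In the replicates' own thresholded lists, 9 of 2302 peaks of replicate 1 and 7 of 1801 of replicate 2 lay in the windows. Each covered 4 of 8 Hox genes, pb, Antp, abd-A and Abd-B, where 57.8% and 52.3% of all genes had a peak within 20 kb, again near the background. All 15 main peaks had a ranked peak within 100 bp in both replicates, as did 95.5% of main peaks on the arms. Both thresholded lists held 6 of the 15 (40.0%, 95% Wilson interval 19.8% to 64.3%, counting error only), against 54.3% on the arms. Counting the companions, each beside a main peak, it was 9 of 22 (40.9%) against 52.3%. Of the rest of the 15, 3 were in the list of replicate 1 only and 6 in neither. Over these 15 peaks, which share their libraries, Spearman's rho between the replicates' signals was 0.70. The conservative list keeps peaks by IDR, which compares ranks between replicates. That selection therefore partly sets both rho and the matches in the ranked lists.

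**Figure D5:**
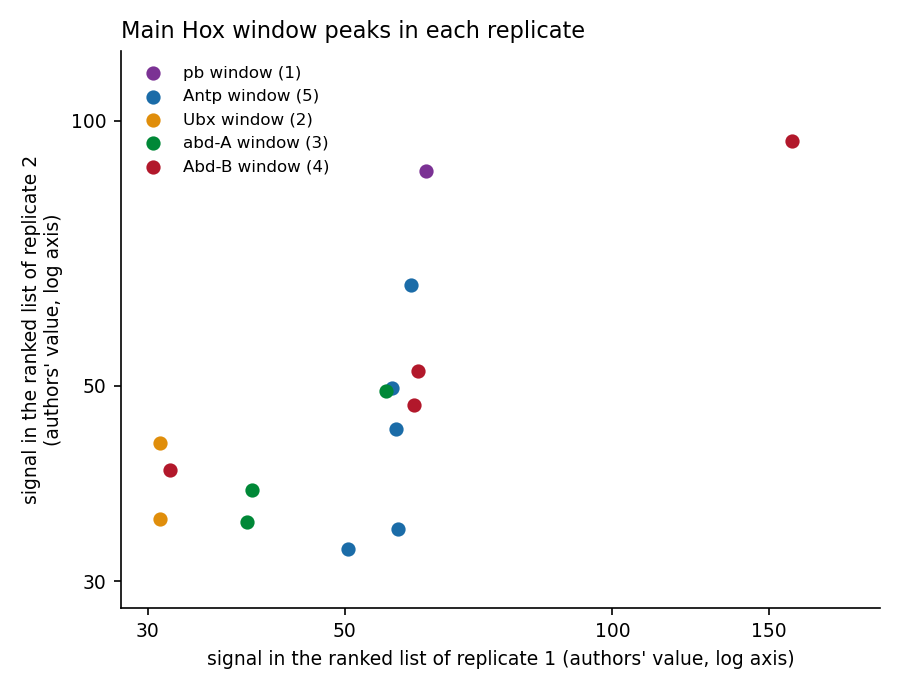
Signal of the 15 main peaks in the ranked list of replicate 1 (horizontal) and of replicate 2 (vertical), the authors' values on log axes, each point a peak coloured by its Hox window. The Abd-B peak at 159 and 94.9 stands apart at the upper right, and both Ubx peaks lie at the left, at 31.0 and 30.9 in replicate 1.

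The sequences printed above were part of a search for 14 motifs within 50 bp of every summit, on both strands. CAGGTG, the E-box of Snail and its relatives, was at 0 of the 22 Hox summits. By the rule of 3 over 22, this allows a share of up to 13.6% if the companions count as separate. The 15 main peaks alone, also with 0, allow a larger share. On the arms it was at 2.04% of summits and in 4.24% of windows shifted by 500 bp. CAGGTAG, the motif of the early activator Zelda, was at 1, the abd-A peak with a signal of 101.1, against 0.39%. GCCAT, the core of the Polycomb recruiter Pho, was at 5 against 12.2%, but 3 of those were companions, and at main peaks it was at 2 of 15 (13.3%) against 11.5%. In windows shifted by 500 bp it was at 6 of 22, against 18.9% on the arms. The Ubx intron peak held 2 copies. GAGAG, the core bound by GAGA factor, was at 2 against 7.72%, and TAATTA, a homeodomain core, at 1 against 364 of 3045 summits on the arms. At least 1 of the 14 motifs, which include a reversed control, GTGGAC, and GAGAGAG beside GAGAG, was at 11 of 22. On the arms it was at 36.8% of summits. With main peaks alone the values were 7 of 15 and 35.9%. A match describes the letters only.

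Genes that act with the Hox genes were taken from lists. They were read against the shares with a conservative peak within 2 kb, 22.4% of all genes and 45.7% of the long ones. Of 6 neighbours in the complexes, bcd and Ama had one. Of 6 Hox cofactors, homothorax (hth), which helps Hox proteins bind DNA, had a peak of signal 231, and disco-r had one of 95.8. Of 5 gap genes, which set the first Hox domains, 0 had one. Of 9 known Hox targets, 3 did, dpp at 228, Dll at 183 and wg at 115.2. Among regulators of Hox expression, 11 of 18 Polycomb group genes, 7 of 13 Trithorax group genes and 4 of 7 insulator genes had one. Gene lengths were not matched, and some peaks, as at Pc, Pcl, calypso and skd, lay nearest to the start of another gene. The strongest Polycomb group peaks were at ph-p with a signal of 1280, phol with 502 and E(z), the histone methyltransferase, with 385; the start nearest to the phol peak was that of CG3552, 100 bp away. The strongest Trithorax group peaks were at ash1 with 1408, which lay 94 bp upstream of its neighbour CG14100, at Trl, the gene of GAGA factor, with 972, and at brm, a chromatin remodeller, with 632. All 6 were picked as the strongest of their lists and were above every Hox window peak. The weakest of the listed genes with a peak, Sfmbt at 84.8 and trx at 87.6, were in the range of the main Hox peaks. Among insulator genes the strongest were Cp190 with 413, mod(mdg4) with 314 and pita with 159, and the starts nearest to the last 2 peaks were those of pre-mod(mdg4)-E at 77 bp and wmd at 34 bp.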

How the data were processed

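Anti-GFP ChIP-seq of whole embryos was read from 8 peak lists: a thresholded and a ranked one for each replicate, and 2 of either sort from both. Per the labels, the assembly was dm6, and the aligner and peak caller are not stated there. The deposited signal of each peak ranked it within its list; the deposited score was read but not used in a comparison. The deposited ranked lists give the −log10 of the global IDR. The other deposited unit used, the summit, is a distance in bp from the peak start. In lists from both replicates, 4 columns per input were not used. Depth is unknown, so the signals carry no counting error.

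Genes and starts came from Ensembl 115 (BDGP6.54) and bases from RefSeq Release 6; coordinates count from 1. Scripts in Python 3.11.15 with pandas 2.3.3 were tested on simulated peaks. Named were the 8 Hox genes, genes with the nearest start to a conservative Hox peak, the 3 strongest of each other list, and all main peaks. The members and lists were chosen with earlier results of these data known. Alternatives were the other lists, windows, thresholds, match rules and motif widths; the whole span of the complexes, the ranked lists' densities and densities without overlapped peaks, beside the arms, were added after seeing the data.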

Additional observations from a re-analysis of the deposited data

How the results depend on the processing

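Of the values that answer a comparison, 28 alternatives kept them, a count within 1.5 times and another value within 1 SD of the replicates, and 27 moved them; for single genes and motifs it was 38 and 30. The 22 Hox window peaks became 11 in bodies alone, 11 with 5 kb flanks and 3 among the stronger 1532 peaks of the list. The 5 genes became 3 in each of these 3 settings. With either replicate left out the peaks became 7 to 9. Those lists held no overlapped peaks in the windows, so the 7 to 9 compare with the 15 main peaks. The 3.51 summits per 100 kb became 3.19 in the second list, 3.26 in bodies, 2.63 with 5 kb, 2.81 with 50 kb, 0.478 among the stronger peaks, 2.39 without overlapped peaks, and 1.12 to 1.43 with a replicate left out. The ranked lists, added after seeing the data, gave 59.8, 48.8, 48.6 and 30.8. The share near a start, 18.2%, became 0 in bodies and with 5 kb, 25.0% with 50 kb, 66.7% among the stronger peaks, 13.6% at 200 bp, and 22.2% to 28.6% with a replicate left out. Summits with a motif rose from 11 to 21 in whole peaks, which are longer. The cause was not tested for the others. No paired analysis was possible because there was 1 group. With 2 replicates and no read counts, depth and the counting error of the signals cannot be given.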
